A study of Mus musculus with 4 samples.

Results

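Chemokines are small secreted proteins that set the direction in which cells migrate, and chemokine receptors are the membrane proteins that read them. The genes described here are every gene whose symbol is Ccl, Cxcl, Ccr or Cxcr followed by digits, together with Cx3cl1, Cx3cr1, Ackr3, Pf4 and Ppbp. They make up 53 of the 20132 genes listed for the E17.5 lungs (20674 in the whole series): 37 ligand entries and 16 receptors, with Ccl27a under 2 gene IDs. The series is single-cell RNA sequencing of C57BL/6 mouse embryos. Live cells came from 3 wild-type lungs at E17.5, called lungs 1, 2 and 3 below. One more sample came from 1 lung at E16.5 of a mouse carrying αSMA-GFP, Tbx4-Cre and Rosa26-tdTomato, from which fibroblasts positive for the Tbx4 lineage and for αSMA were sorted. In that sample tdTomato marks the descendants of cells in which Tbx4-Cre was active, and GFP marks cells with α smooth muscle actin promoter activity, and 2989 of its 3055 cells clustered as mesenchyme, with 38 epithelial, 21 endothelial and 7 erythroid cells.

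A chemokine binds glycosaminoglycans near the cell that secretes it, and a cell that carries the matching receptor turns and moves along that gradient through Gi-coupled signalling. Some ligands are made steadily by stromal or endothelial cells and place stem cells, vessels and leukocytes, as CXCL12 does through CXCR4, while others are induced in minutes by inflammatory or stress signals and recruit neutrophils and monocytes. In the fetal lung, macrophages and monocytes enter from liver and yolk sac before birth, and the alveolar epithelium begins to make its own chemokine, CXCL15 or lungkine.

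Cells were grouped by clustering on genes that held neither the chemokines nor the related lists, and clusters were named from marker genes, so each name is written with "-like". The 3 lungs held 7479 cells, 7383 after removal of called doublets, with 20347458 to 23996253 molecules (unique molecular identifiers, UMIs) per lung and medians of 7979, 8493.5 and 7201 UMIs per cell. Between 7 and 13 cell barcodes were shared by any pair of the 4 libraries. There were 1858 epithelial, 1369 endothelial, 1944 mesenchymal and 2180 immune cells. The smallest subclass compared was the arterial-like one, with 32, 20 and 24 cells in lungs 1, 2 and 3. Monocyte-like cells were 2 clusters, of 328 and 162 cells, and the larger of these had none of the fixed monocyte markers among its 10 leading genes. A pre-alveolar macrophage-like class of 1338 cells made up most of the immune cells. Levels are UMIs per 1000000 (CPM), averaged over the cells of a class in each lung. A difference is the class minus the mean of the other classes in the same fit, on the log2(CPM + 10) scale, with its standard error and limma's Benjamini-Hochberg adjusted p over all genes tested in that fit. The labels do not say that the lungs come from separate litters, so p-values speak for these 3 lungs only. With the lung as a block, they measure how far differences between classes vary from lung to lung. That spread is partly pooled over genes, and wholly so in the endothelial fit.

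The chemokine system took 0.203% of all UMIs in the lungs, and 2 ligands held much of it: Cxcl2 had 27.0% and Cxcl15 20.0% of the UMIs of these genes. Of the 53 genes, 43 had UMIs in all 3 lungs. A mean of 50 CPM or more in at least 1 class with 20 cells or more in every lung was reached by 24, 9 lay between 5 and 50 CPM, and 20 stayed lower. Among the 12 named classes of that size, C1q macrophage-like cells had the highest mean level for 12 of the 24 (Ccl2, Ccl3, Ccl4, Ccl7, Ccl12, Ccl24, Cxcl2, Cxcl10, Cxcl16, Pf4, Ccr1 and Cx3cr1). Monocyte-like cells had it for 4 (Ccl6, Ccl9, Ccr2 and Cxcr4). The other 8 had it outside the immune cells, in capillary plexus-like cells (Ackr3, and Ccl21a through 6 cells with lymphatic markers), matrix fibroblast-like cells (Ccl11, Cxcl14), smooth muscle-like cells (Cxcl1, Cxcl13), alveolar type 2-like cells (Cxcl15) and arterial-like cells (Cxcl12). This order leaves out the small and unnamed classes: mast or basophil-like cells held more Ccl3, Ccl4, Ccl6, Ccl9 and Cxcl10 and granulocyte-like cells more Ccr1, and 2 unnamed clusters held more Ackr3 and more Cxcl14.

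**Figure D1:**
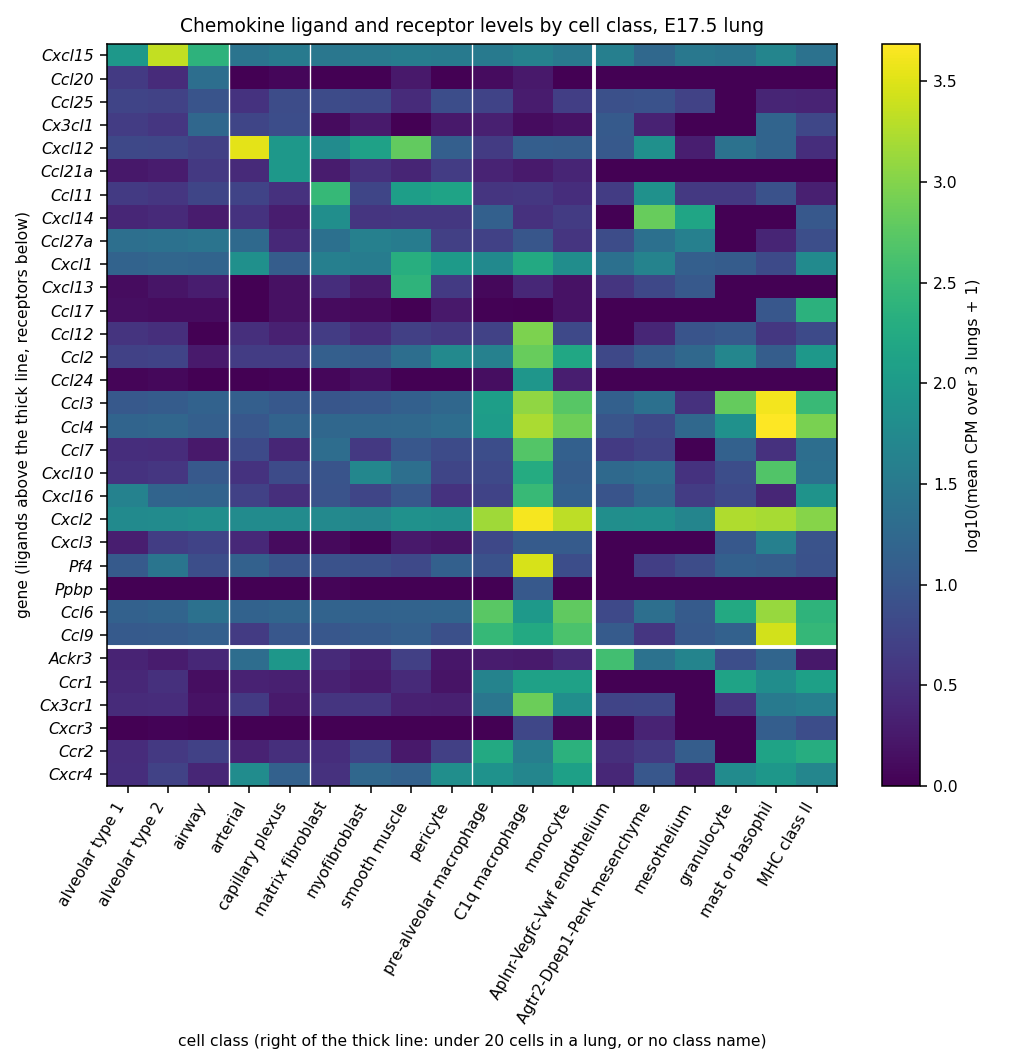
Levels of 32 chemokine and receptor genes at 5 CPM or more (rows, ligands above the thick line) in the cell classes of the E17.5 lungs (columns), as log10 of the mean CPM over 3 lungs plus 1. Columns right of the thick line are small or unnamed classes. Rows are to be read across and not against each other, since transcripts differ in how well they are captured; the block of high ligand levels in C1q macrophage-like cells and single peaks such as Cxcl15 in alveolar type 2-like cells stand out.

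Between the 4 compartments, 23 of the 53 genes passed the filter of a mean of 10 CPM, 18 ligands and 5 receptors. A gene present in 1 compartment only can pass that filter through that compartment, so the counts describe where the 23 sat. In immune cells 16 were higher and 7 lower, against 28.5% of all 4133 tested genes called higher and 57.8% lower. Their median difference was 2.25, and that of all tested genes -0.28. In epithelium 3 were higher and 20 lower (all genes 28.1% higher and 49.0% lower), with a median of -1.12 against -0.13. In endothelium 3 were higher and 20 lower (51.7% and 27.8%), with a median of -1.22 against 0.16. In mesenchyme 6 were higher and 15 lower (42.7% and 34.9%), with a median of -0.90 against 0.06. The 3 genes higher in epithelium were Cxcl15, Cxcl16 and Ccl27a, and the 3 higher in endothelium were Cxcl12, Ackr3 and Ccl21a. Nearly all endothelial Ccl21a UMIs lay in 6 cells with lymphatic markers. The 6 higher in mesenchyme were Ccl11, Cxcl14, Cxcl12, Ccl27a, Cxcl1 and Cxcl10.

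These splits depend on the scaling for genes at large and little for the chemokines. Median-of-ratios scaling moved the median of all tested genes in immune cells from -0.28 to 0.00 and in endothelium from 0.16 to -0.05. With it the share of higher calls among all calls went from 33.0 to 50.35% in immune cells, from 65.1 to 44.2% in endothelium, and from 55.02 to 42.3% in mesenchyme. The chemokines then stood at 16 higher and 6 lower in immune cells, 3 and 20 in endothelium, and 6 and 16 in mesenchyme.

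Several abundant ligands, Cxcl15 and Cxcl2 among them, also had a low, even level outside the compartment that held most of each. The plot of Cxcl15, Cxcl2 and Pf4 by class shows it for Cxcl15 and Cxcl2. Cxcl15 stood at 28.7 to 31.8 CPM in endothelium, mesenchyme and immune cells, 9.32 to 10.3% of its level over all cells. Cxcl2 stood at 55.4 to 59.7 CPM in the 3 compartments other than immune cells, 9.34 to 10.1% of its level over all cells. Outside immune cells Ccl6 stood at 8.66 to 8.83% of its level over all cells and Ccl3 at 7.74 to 8.40%. Ccl4 stood at 8.51 to 10.1% there, Ccl9 at 7.84 to 9.38% and Ccr2 lower, at 4.08 to 5.29%. The level of Pf4 was less even, and stood at 7.58 to 17.6 CPM in the compartments other than immune cells (8.52 to 19.8% of its level over all cells). Ccl2 (8.17 to 38.1%), Ccl7, Ccl12, Cxcl10, Ccr1 and Cx3cr1 were also less even. The share of free RNA in these levels was not tested.

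**Figure D2:**
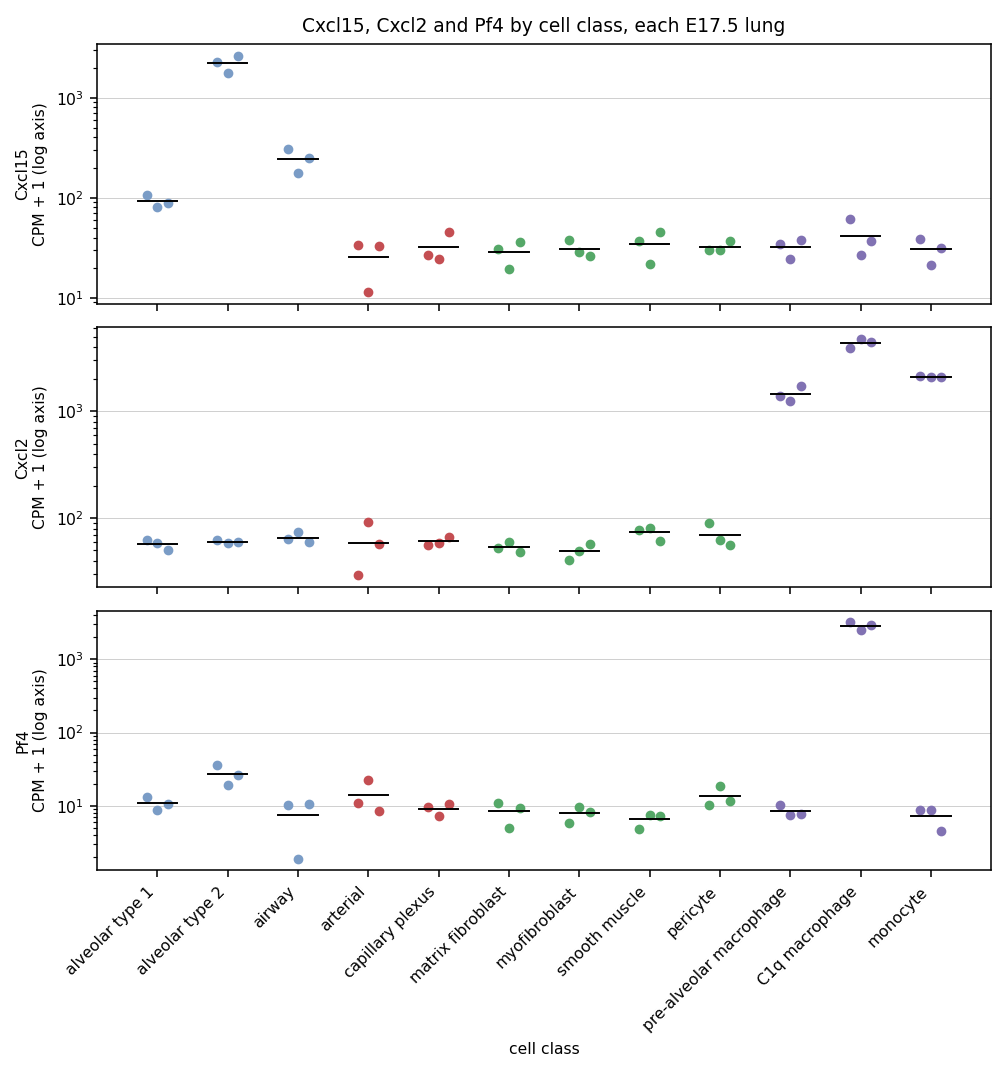
Levels of Cxcl15, Cxcl2 and Pf4 in 12 cell classes of the E17.5 lungs, as CPM + 1 on a log axis, with 1 point per lung and a line at the mean. Each gene has 1 to 3 high classes; the low level in the rest is even for Cxcl15 and Cxcl2, where it lies for Cxcl2 at 55.4 to 59.7 CPM in the compartments other than immune cells.

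A run of 7 of these genes lies on chromosome 5, in the order Cxcl5, Ppbp, Pf4, Cxcl3, Cxcl15, Cxcl1 and Cxcl2, and the described ones among them were not all high in the same cells. Of the 12 large named classes, Pf4 and Cxcl2 were highest in C1q macrophage-like cells and Cxcl15 in alveolar type 2-like cells, while Cxcl1 was highest in smooth muscle-like cells in lung 1 only. The 120 bases before the start of Cxcl15, Cxcl1 and Cxcl2 are shown because the 3 genes follow each other in this order, with Cxcl15 high in epithelium and both Cxcl1 and Cxcl2 called higher in C1q macrophage-like cells. They are from RefSeq on GRCm38.p6, plus strand, with capitals marking matches to GGGNNTTTCC on either strand, the form of an NF-kappa-B site, and to TATAAA, the core of a TATA box.
Cxcl15, chr5:90794414-90794533: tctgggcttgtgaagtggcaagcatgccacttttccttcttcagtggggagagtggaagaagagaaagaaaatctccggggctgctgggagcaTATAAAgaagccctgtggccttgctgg
Cxcl1, chr5:90891125-90891244: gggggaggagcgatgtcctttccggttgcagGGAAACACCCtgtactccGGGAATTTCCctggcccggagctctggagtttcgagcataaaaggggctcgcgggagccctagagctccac
Cxcl2, chr5:90903779-90903898: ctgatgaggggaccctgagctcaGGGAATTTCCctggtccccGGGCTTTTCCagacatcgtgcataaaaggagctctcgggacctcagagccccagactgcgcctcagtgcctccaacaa
GGGNNTTTCC occurred in 535 of 32851 RefSeq promoters of 300 bases, or 1.63%, and in those of 5 of the 39 chemokine and receptor genes with a promoter in that table (Ccl9, Ccl20, Cxcl1, Cxcl2 and Cxcl3). Cxcl1 held it at -71 as GGGAATTTCC and on the other strand at -89, and Cxcl2 at -97 as the same 10 letters and at -78 as GGGCTTTTCC. Cxcl15 held no match in its window, and a TATAAA at -27. TATAAA occurred in 13.6% of all promoters. A match describes letters and not a bound site.

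Cxcl12, the stromal ligand of CXCR4 and ACKR3, was an arterial and smooth muscle transcript. Arterial-like cells held 2793, 2779.8 and 4599 CPM in lungs 1, 2 and 3, and capillary plexus-like cells 69.6, 73.6 and 131 CPM. The groups did not overlap, and the ratio was 35.2 to 40.2 in each lung; the log2 difference was 5.08 ± 0.12. Of arterial-like cells 99.0% had a Cxcl12 UMI, and 80.4% after thinning every cell to 1000 UMIs. In alveolar type 2-like cells, which are deeper (a median of 11459.5 against 5882 UMIs in lung 1), the shares were 5.79% and 0.65%.

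In the mesenchyme, smooth muscle-like cells held 727, 423 and 712 CPM of Cxcl12 (3.38 ± 0.14, adjusted p = 3.5e-13). Myofibroblast-like cells held 133, 125 and 119.5 CPM, and matrix fibroblast-like cells 70.4, 60.5 and 47.5 CPM. Pericyte-like cells were the low end, with 15.1, 6.76 and 14.6 CPM (-3.04 ± 0.14, adjusted p = 6.9e-13), and smooth muscle-like cells stood 48.04 to 62.5 times higher in each lung. The myofibroblast value passed the test (0.48 ± 0.14, adjusted p = 0.0099) and did not without lung 2 (0.34, adjusted p = 0.088). The matrix fibroblast value was lower (-0.82 ± 0.14, adjusted p = 8.3e-05), and turned to 0.34 at a clustering resolution of 0.5 and to 0.31 with clusters from all genes. No smooth muscle-like class formed in either setting, so the mean of the others left out the mesenchymal class highest in Cxcl12.

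**Figure D3:**
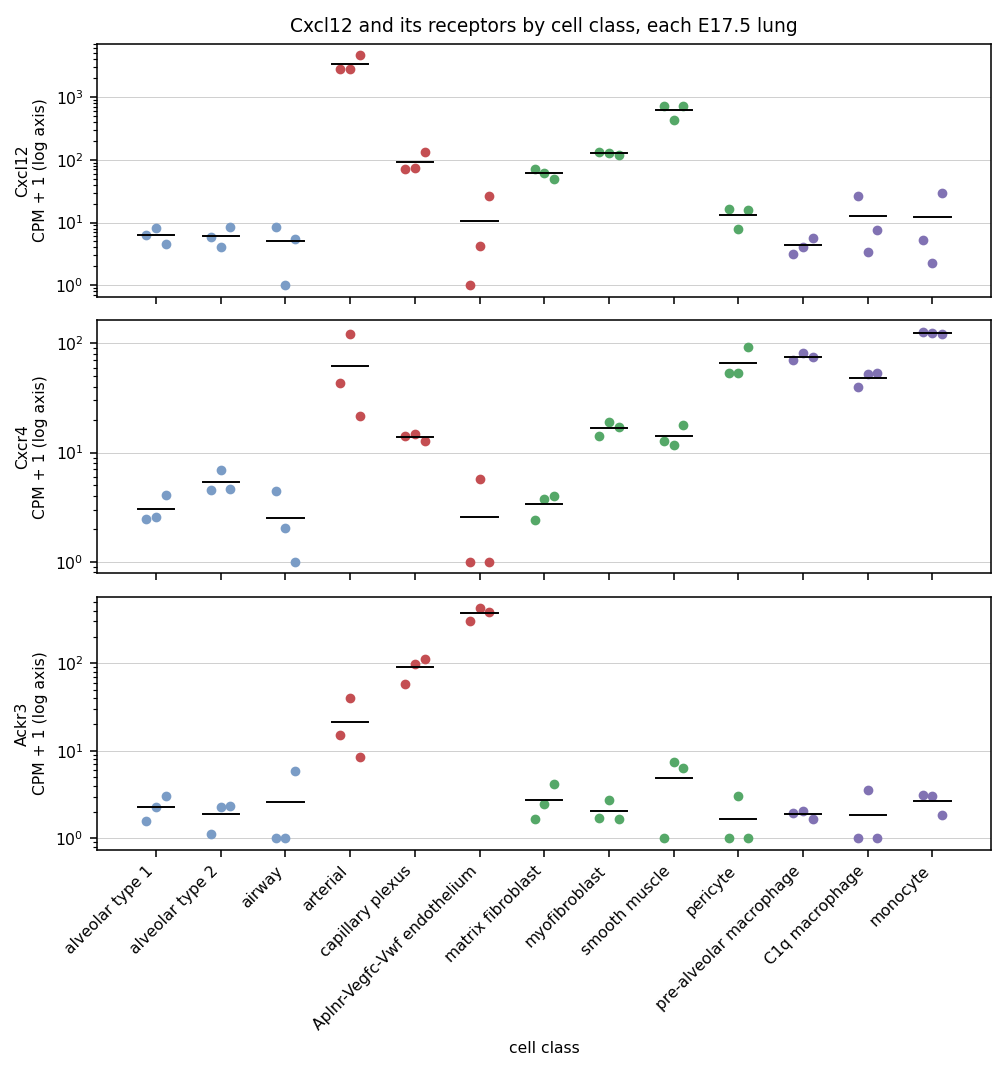
Levels of Cxcl12 and of its receptors Cxcr4 and Ackr3 by cell class, as CPM + 1 on a log axis, with 1 point per E17.5 lung and a line at the mean. Cxcl12 is high in arterial-like and smooth muscle-like cells, and Cxcr4 in monocyte-like, pre-alveolar macrophage-like and pericyte-like cells. Ackr3 is high in capillary plexus-like cells and the Aplnr-Vegfc-Vwf cluster.

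The receptors of Cxcl12 had other leading classes, though arterial-like cells, the highest for Cxcl12, also held Cxcr4. Cxcr4, its signalling receptor, was higher in immune cells (79.3, 86.8 and 81.3 CPM, 2.25 ± 0.08, adjusted p = 4.1e-18). Within them monocyte-like cells held 126, 124 and 122 CPM (0.95 ± 0.10, adjusted p = 3.1e-06) and C1q macrophage-like cells 38.8, 51.2 and 52.4 CPM (-0.90 ± 0.10, adjusted p = 1.7e-06). The 3 values of the former all lay above the 3 of the latter. Pre-alveolar macrophage-like cells were not called (-0.05 ± 0.10, adjusted p = 0.70). After thinning 6.85% of them had a Cxcr4 UMI, against 12.5% of monocyte-like and 7.18% of pericyte-like cells. The smaller monocyte-like cluster, led by Plac8 and Ly6c2, held 224, 233 and 207 CPM of Cxcr4, and the larger 76.8, 78.7 and 75.5 CPM.

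Outside the immune cells, pericyte-like cells were the Cxcr4 holders of the mesenchyme, with 52.3, 52.04 and 92.1 CPM (1.92 ± 0.17, adjusted p = 1.7e-08), 4.46 to 5.41 times the level in smooth muscle-like cells. Arterial-like cells held 41.9, 120.4 and 20.7 CPM of Cxcr4 and capillary plexus-like cells 13.2, 13.8 and 11.8 CPM. The arterial difference (1.37 ± 0.33, adjusted p = 3.4e-04) rested on lung 2: without it the value was 0.83 with an adjusted p of 0.19.

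Ackr3, an atypical receptor that takes up and clears CXCL12 without G-protein signalling, was endothelial (62.2, 110.4 and 120.1 CPM, 3.15 ± 0.09, adjusted p = 4.3e-19). Capillary plexus-like cells held 57.6, 97.5 and 111 CPM and arterial-like cells 14.1, 38.6 and 7.54 CPM, with no overlap (-1.81 ± 0.29, adjusted p = 1.2e-08). In each lung the plexus level was 2.53 to 14.7 times the arterial one, the reverse of the order of Cxcl12. The highest level was in a cluster of 60 endothelial cells led by Aplnr, Vegfc and Vwf, which matched none of the fixed subclass markers and held 306, 423 and 386 CPM of Ackr3. Mesothelium-like cells held 57.6, 0 and 79.3 CPM, from 15, 1 and 16 cells.

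Cxcl15, an epithelial ligand that draws neutrophils in the mouse lung, was made by alveolar type 2-like cells. They held 2267, 1777 and 2629 CPM, airway-like cells 303, 176 and 247 CPM and alveolar type 1-like cells 107, 79.8 and 86.99 CPM. The type 2 level was 21.3 to 30.2 times the type 1 level in each lung (3.81 ± 0.10, adjusted p = 1.3e-08), and type 1-like cells stood above the 28.7 to 31.8 CPM of other compartments. Of type 2-like cells 92.8% had a Cxcl15 UMI, 64.5% after thinning. In capillary plexus-like cells, with a median of 6673 UMIs in lung 1 against 11459.5, the shares were 19.0% and 2.79%. Type 2-like cells were not uniform: their cluster of low cell-cycle score held 3035, 2738 and 3378 CPM and the cycling cluster 646, 347 and 591 CPM of Cxcl15. The former had 5 of the fixed type 2 markers among its 10 leading genes. The cycling cluster had 2 and was led by Mia and Bex4. The 2 clusters thus differed in more than cycling, and the part of each difference was not tested.

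Between the epithelial subclasses 10 of the 53 genes were tested. In alveolar type 2-like cells 2 were higher and 0 lower, against 6.76% and 12.9% of all tested genes. In alveolar type 1-like cells 1 was higher and 1 lower (13.9% and 13.8%), and in airway-like cells 1 was higher and 3 lower (22.7% and 16.4%). Under median-of-ratios scaling the share of higher calls among all calls went from 34.5 to 47.2% in type 2-like cells and from 58.1 to 42.3% in airway-like cells, where the chemokines then stood at 0 higher and 3 lower. Leaving out lung 1 or lung 3 left 2 airway-like calls, and leaving out lung 3 left 1 type 1-like call.

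Cxcl16, a membrane-bound ligand of CXCR6, was the type 1 ligand of the epithelium, with 40.3, 43.3 and 41.03 CPM in alveolar type 1-like and 11.6, 14.5 and 17.4 CPM in type 2-like cells. The 3 type 1 values lay above the 3 type 2 values (1.17 ± 0.24, adjusted p = 0.0045), and the call was lost without lung 3 (1.15, adjusted p = 0.072). Pf4 was the other gene higher in type 2-like cells (35.2, 18.4 and 24.9 CPM, 1.00 ± 0.17, adjusted p = 0.0022), against 12.3, 7.76 and 9.58 CPM in type 1-like cells. No type 2-like cell held 10 or more Pf4 UMIs, and the share of free or doublet RNA in this value was not tested. Ccl20, which draws CCR6-bearing cells, was seen in airway-like cells at 3.91, 2.67 and 54.6 CPM, with lung 3 far above the other lungs. Cx3cl1, the membrane-tethered ligand of CX3CR1, was at 16.2, 26.01 and 6.08 CPM in airway-like cells and 7.88, 5.81 and 5.77 CPM in endothelium.

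C1q macrophage-like cells, 203 cells led by Pf4, C1qa, C1qc and C1qb, held high levels of many ligands. Of 19 genes tested between the immune subclasses, 14 were higher and 4 lower in them, against 27.9% and 26.8% of all 3442 genes, with a median of 2.20 against 0.00. Genes such as Ccl12, Ccl24 and Pf4 could pass the filter through this class alone, so these counts too describe where the tested genes sat. Pre-alveolar macrophage-like cells had 2 higher and 13 lower (25.9% and 21.2%), with a median of -1.61 against 0.05. Monocyte-like cells had 7 higher and 9 lower (11.9% and 17.7%), with a median of -0.20 against -0.08. Under median-of-ratios scaling the share of higher calls among all calls in monocyte-like cells went from 40.2 to 62.8%, and the chemokines there stood at 7 higher and 8 lower.

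Pf4, a chemokine known best from platelets, marked the C1q macrophage-like cells at 3187, 2527 and 2924 CPM (7.42 ± 0.11, adjusted p = 1.3e-17). In each lung this was 328 to 821 times the monocyte-like level. Of these cells 96.3% had a Pf4 UMI, 76.6% after thinning, and in capillary plexus-like cells the shares were 6.13% and 0.71%, at medians of 8548.5 and 6673 UMIs in lung 1. Ppbp, the other platelet chemokine, was at 6.9, 9.37 and 12.5 CPM in the same cells.

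The ligands of CCR2, which draw monocytes, were concentrated in the same macrophages. Ccl12 was at 964, 896 and 859 CPM (5.94 ± 0.11, adjusted p = 2.1e-16), and Ccl2 at 677, 587 and 780.4 CPM (2.94 ± 0.13, adjusted p = 1.3e-11). Ccl7 was at 539, 308 and 673 CPM (4.71 ± 0.21, adjusted p = 1.9e-11). All 3 were lower in pre-alveolar macrophage-like cells, where Ccl2 held 41.9, 48.01 and 30.4 CPM. Ccr2, the receptor of these ligands, was lowest in C1q macrophage-like cells among the 3 large immune classes. They held 11.3, 52.1 and 47.8 CPM (-2.30 ± 0.19, adjusted p = 4.1e-08). Monocyte-like cells held 233, 231 and 225 CPM (1.44 ± 0.19, adjusted p = 3.2e-05) and pre-alveolar macrophage-like cells 167, 182 and 171 CPM. The monocyte level was 4.43 to 20.6 times the C1q macrophage level in each lung. Of monocyte-like cells 72.9% had a Ccr2 UMI and 18.2% after thinning, and of capillary plexus-like cells 1.56% and 0.25%, at medians of 8328 and 6673 UMIs in lung 1.

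**Figure D4:**
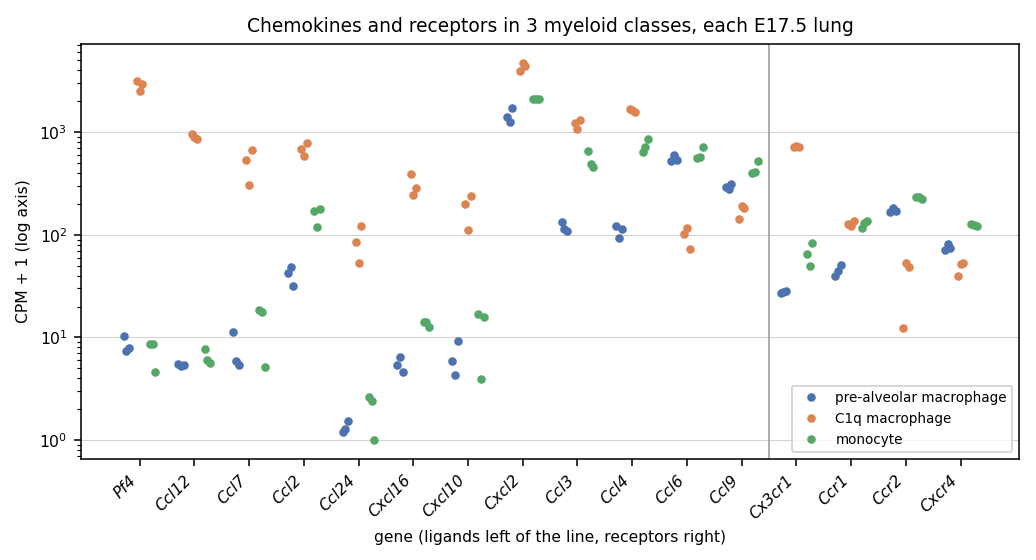
Levels of 12 ligands and 4 receptors in the 3 large immune classes of the E17.5 lungs, as CPM + 1 on a log axis, with 1 point per lung. Ccl2, Ccl12, Pf4 and Cx3cr1 are highest in C1q macrophage-like cells, and Ccl6 and Ccr2 are lowest there.

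Cx3cr1, the fractalkine receptor of resident macrophages and monocytes, was the receptor of the C1q macrophage-like cells, with 708, 725 and 716 CPM (3.80 ± 0.11, adjusted p = 5.1e-14). That was 8.78 to 14.9 times the level in monocyte-like cells (64.1, 48.7 and 81.5 CPM). Of C1q macrophage-like cells 94.7% had a Cx3cr1 UMI, 45.7% after thinning, against 0.63% and 0.08% of capillary plexus-like cells. Ccr1, which reads Ccl3, Ccl6, Ccl7 and Ccl9 among others, was at 127, 119.6 and 135 CPM in C1q macrophage-like, 117, 130.4 and 135 CPM in monocyte-like and 39.03, 43.4 and 49.8 CPM in pre-alveolar macrophage-like cells. The first 2 classes overlapped each other and lay above the third (-1.35 ± 0.09, adjusted p = 5.9e-09).

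Ccl3 and Ccl4, ligands that activated macrophages secrete, were shared by C1q macrophage-like and monocyte-like cells. Both were lower in pre-alveolar macrophage-like cells (-2.66 ± 0.08, adjusted p = 4.1e-13, and -3.23 ± 0.08, adjusted p = 9.4e-14). Ccl3 was at 1224, 1064 and 1305 CPM in C1q macrophage-like cells (2.20 ± 0.08, adjusted p = 1.2e-12), and Ccl4 at 1699.6, 1649 and 1556 CPM (2.47 ± 0.08, adjusted p = 4.6e-13). The monocyte-like levels hid 2 clusters. For Ccl3 the smaller, Plac8-led cluster held 1531, 1212 and 974 CPM and the larger 220.3, 185 and 175 CPM. For Ccl4 they held 1554, 1303 and 1928 and 182, 467 and 287 CPM. The groups of 3 lungs did not overlap for either gene.

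Cxcl16, Cxcl10 and Ccl24 were also higher in C1q macrophage-like cells than in the other large immune classes. Cxcl16 was at 391, 242 and 283 CPM (4.09 ± 0.14, adjusted p = 4.8e-13). Cxcl10, an interferon-induced ligand of CXCR3, was at 199, 110.0 and 238 CPM (3.38 ± 0.15, adjusted p = 1.2e-11). Ccl24, an eotaxin, was at 83.3, 52.5 and 121 CPM (3.10 ± 0.18, adjusted p = 5.8e-10). Lung 2 was the lowest of the 3 lungs for each.

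Ccl6 and Ccl9, 2 related mouse ligands of CCR1, were lowest in C1q macrophage-like cells among the 3 large immune classes. Ccl6 was at 560.1, 577 and 718 CPM in monocyte-like cells (1.37 ± 0.11, adjusted p = 8.2e-08) and 519.5, 599.6 and 539.5 CPM in pre-alveolar macrophage-like cells (1.14 ± 0.11, adjusted p = 2.3e-07). C1q macrophage-like cells held 100.0, 115 and 71.5 CPM of it (-2.51 ± 0.11, adjusted p = 1.0e-11). Ccl6 and Ccr2 were the 2 genes higher in pre-alveolar macrophage-like cells. Ccl9 was at 399, 408 and 521 CPM in monocyte-like cells (0.95 ± 0.08, adjusted p = 2.6e-07) and 141, 189 and 179.7 CPM in C1q macrophage-like cells (-1.05 ± 0.08, adjusted p = 1.7e-08).

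Cxcl2, a neutrophil-drawing ligand of CXCR2, was present in every large immune class. It was at 3952, 4749 and 4429 CPM in C1q macrophage-like cells (1.31 ± 0.07, adjusted p = 7.2e-11), 2128, 2099 and 2083 CPM in monocyte-like and 1403, 1264 and 1739 CPM in pre-alveolar macrophage-like cells. The 3 classes did not overlap. After thinning, 67.7% of C1q macrophage-like cells had a Cxcl2 UMI (86.6% before), against 5.39% of capillary plexus-like cells (31.7% before), at medians of 8548.5 and 6673 UMIs in lung 1. The fixed list of 20 immediate early and stress genes, which cells switch on within minutes of handling, moved the same way: all 20 were higher in C1q macrophage-like cells, with a median of 1.28, and all 20 lower in pre-alveolar macrophage-like cells, with a median of -1.21 (all genes 27.9% higher in the former and 21.2% lower in the latter). Between compartments the list and Cxcl2 parted in mesenchyme. There 14 of 19 tested list genes were higher and 3 lower (42.7% and 34.9% of all genes), with a median of 1.08, while Cxcl2 was lower (-1.67 ± 0.05). In immune cells the list had a median of 0.26 and Cxcl2 a difference of 4.80. In epithelium and endothelium the list median and the Cxcl2 difference were both negative. The part of the enzymatic digestion in the levels of these inducible ligands was not tested.

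Small immune classes, read as levels only, held chemokines of their own. Mast or basophil-like cells, 16, 10 and 11 in lungs 1, 2 and 3, held 7273, 4158 and 1097 CPM of Ccl3, 5487, 7616 and 1460.1 CPM of Ccl4 and 3838, 3125 and 1297 CPM of Ccl9. Lung 3 was the lowest for each. They also held Ccl5, a T cell-drawing ligand, at 407, 70.99 and 171 CPM and Cxcr6, the CXCL16 receptor, at 36.8, 28.4 and 35.02 CPM. Cxcr6 had only 4, 2 and 3 UMIs over all cells of lungs 1, 2 and 3, so its level rests on few molecules. MHC class II-like cells, 25, 21 and 19, held Ccl17, a dendritic cell ligand of CCR4, at 275, 275 and 146 CPM and Ccr7, which leads dendritic cells to lymph nodes, at 11.3, 16 and 34.2 CPM. Granulocyte-like cells, 17, 9 and 21, held Cxcr2, the neutrophil receptor of Cxcl1 and Cxcl2, at 139.7, 105 and 97.7 CPM.

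When these 3 small classes were added to the immune fit, an alternative chosen after seeing the data, monocyte-like cells kept 2 calls and pre-alveolar macrophage-like cells 9. In that fit Ccl3, Cxcl2, Cxcl1 and Cx3cr1 changed sign in monocyte-like cells, at -0.18, 0.41, 0.82 and 0.48.

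The mesenchyme divided its ligands between classes. Of 14 genes tested between its 4 subclasses, 2 were higher and 5 lower in matrix fibroblast-like cells (10.4% and 17.4% of all genes). In myofibroblast-like cells 3 were higher and 5 lower (19.1% and 12.2%), in smooth muscle-like cells 5 and 1 (10.3% and 14.4%), and in pericyte-like cells 3 and 5 (17.9% and 16.7%). The median differences were -0.23, -0.17, 0.11 and 0.08, and those of all tested genes -0.06, 0.06, -0.06 and 0.02. Genes such as Cxcl13 and Cxcl14 could pass the filter through a single subclass, so these counts too describe where the tested genes sat.

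Ccl11, or eotaxin, which draws eosinophils through CCR3, was at 278, 299 and 302 CPM in matrix fibroblast-like cells (2.26 ± 0.17, adjusted p = 4.1e-09). Myofibroblast-like cells held 5.64, 7.42 and 1.64 CPM (-3.56 ± 0.17, adjusted p = 2.5e-12), and the matrix fibroblast level was 40.2 to 185 times that in each lung. Pericyte-like cells held 201, 90.2 and 122 CPM, a call lost without lung 1 (0.79 with all lungs, 0.48 and adjusted p = 0.087 without). Smooth muscle-like cells held 103, 155 and 89.96 CPM, a call lost without lung 2 (0.52 to 0.28, adjusted p = 0.26) and without lung 3 (adjusted p = 0.085).

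Cxcl14, whose receptor is debated, was at 64.5, 64.4 and 68.2 CPM in matrix fibroblast-like cells (2.57 ± 0.18, adjusted p = 1.1e-09). An unnamed cluster of 84 mesenchymal cells led by Agtr2, Dpep1 and Penk held 622, 651 and 743 CPM of Cxcl14, above every other class in every lung. Cxcl13, a B cell-drawing ligand, was at 165, 144 and 445 CPM in smooth muscle-like cells (4.28 ± 0.22, adjusted p = 1.3e-11), with lung 3 the highest. Cxcl10 was at 57.6, 40.4 and 50.4 CPM in myofibroblast-like cells (1.63 ± 0.26, adjusted p = 6.0e-05). Ccl2 was higher in pericyte-like cells, at 49.97, 37.4 and 73.2 CPM (1.42 ± 0.20, adjusted p = 1.2e-05). Ccl27a, a ligand of CCR10 known from skin keratinocytes, was at 39.6, 40.7 and 37.3 CPM in myofibroblast-like cells (0.88 ± 0.17, adjusted p = 4.5e-04) and 23.98, 22.9 and 18.9 CPM over the epithelium.

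Cxcl1, a relative of Cxcl2, was shared by stromal and immune classes. Smooth muscle-like cells held 319, 153 and 145 CPM (1.78 ± 0.24, adjusted p = 1.1e-05). Pericyte-like cells held 75.98, 188 and 43.9 CPM, C1q macrophage-like cells 153, 177 and 182 CPM (1.44 ± 0.18, adjusted p = 5.4e-06), and arterial-like cells 41.05, 109.8 and 61.9 CPM (1.86 ± 0.32, adjusted p = 1.2e-07). Smooth muscle-like cells were the highest of these in lung 1, pericyte-like cells in lung 2 and C1q macrophage-like cells in lung 3, so the order rests on the lung. After thinning, 10.3% of C1q macrophage-like cells had a Cxcl1 UMI, and the share with both Cxcl1 and Cxcl2 was also 10.3%. In smooth muscle-like cells 12.1% had Cxcl1 and 1.52% had both. Cxcl2 was seen in 67.7% of the former class and 3.76% of the latter. The products of the single shares were 6.97% and 0.455%, so the joint share lay above the product in both classes. Immediate early genes were called higher for 9 of 17 and lower for 0 in arterial-like cells, and for 2 and 1 of 17 in smooth muscle-like cells, against 7.64% and 10.4% and 10.3% and 14.4% of all genes; their part in the Cxcl1 levels was not tested.

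Within the endothelium, 3 of 11 tested genes were higher and 2 lower in arterial-like than in capillary plexus-like cells, against 7.64% and 10.4% of all tested genes. The higher ones were Cxcl12, Cxcl1 and Cxcr4 and the lower ones Ackr3 and Ccl21a. The median was -0.13 and that of all tested genes -0.05. Ccl21a could pass the filter through capillary plexus-like cells alone, so these counts also describe where the tested genes sat. Ccl21a, the lymphatic ligand of CCR7, was at 93.2, 108 and 69.6 CPM in capillary plexus-like cells, yet that level came from 6 cells. Those cells, 2 in each lung, were picked out after their values were seen as the ones with 10 or more Ccl21a UMIs. They held 963 Ccl21a UMIs, and the other 1363 endothelial cells held 6. Their Prox1, Mmrn1, Reln and Flt4 levels, the fixed lymphatic markers, were 394.5, 1061, 415 and 552 CPM, and in the other endothelial cells 3.57, 10.5, 0.346 and 29.8 CPM. The capillary plexus value of Ccl21a is therefore a value of 6 cells with lymphatic markers. Reads of Ccl21a and of the near-identical Ccl21b, with 7 UMIs in all, may be divided between them by the counting.

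The E16.5 sort is 1 sample, so its levels have no test and are given with exact Poisson 95% intervals that cover counting error only. It held 2989 mesenchymal cells, 1041 of them pericyte-like, 785 myofibroblast-like, 543 matrix fibroblast-like and 164 smooth muscle-like. The matrix fibroblast-like class is not the same set as in the lungs, where the Agtr2-Dpep1-Penk cluster was kept apart. In the sort it took in a cluster of 133 cells with Agtr2 among its 10 leading genes. Another of its clusters, of 299 cells, had Cxcl14 and Dpep1 among them. Cxcl12 again had its highest level in smooth muscle-like cells, at 889 CPM (849 to 931), and its lowest in pericyte-like cells, at 15.5 CPM (13.7 to 17.6). Cxcl14 was at 247 CPM (233 to 261) in matrix fibroblast-like and Cxcl13 at 108 CPM (92.8 to 124) in smooth muscle-like cells. Cxcr4 was at 55.6 CPM (51.9 to 59.6) in pericyte-like cells.

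Ccl11 had another order there, and Ccl2 another level. Ccl11 was at 433 CPM (423 to 444) in pericyte-like, 274 CPM (252 to 298) in smooth muscle-like and 152 CPM (142 to 163) in matrix fibroblast-like cells, so the pericytes were highest, where the matrix fibroblasts were in the E17.5 lungs. Ccl2 was at 264 CPM (256 to 273) in pericyte-like cells, against 49.97, 37.4 and 73.2 CPM in the 3 lungs. Cxcl10 was at 0.099 CPM (0.027 to 0.254) over the sorted mesenchyme. Stage, reporter alleles, sort, library and the make-up of the matrix fibroblast-like class all differ between the sort and the lungs, and their parts cannot be told apart. Ccl3 was at 0.168 CPM over all cells of the sort.

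**Figure D5:**
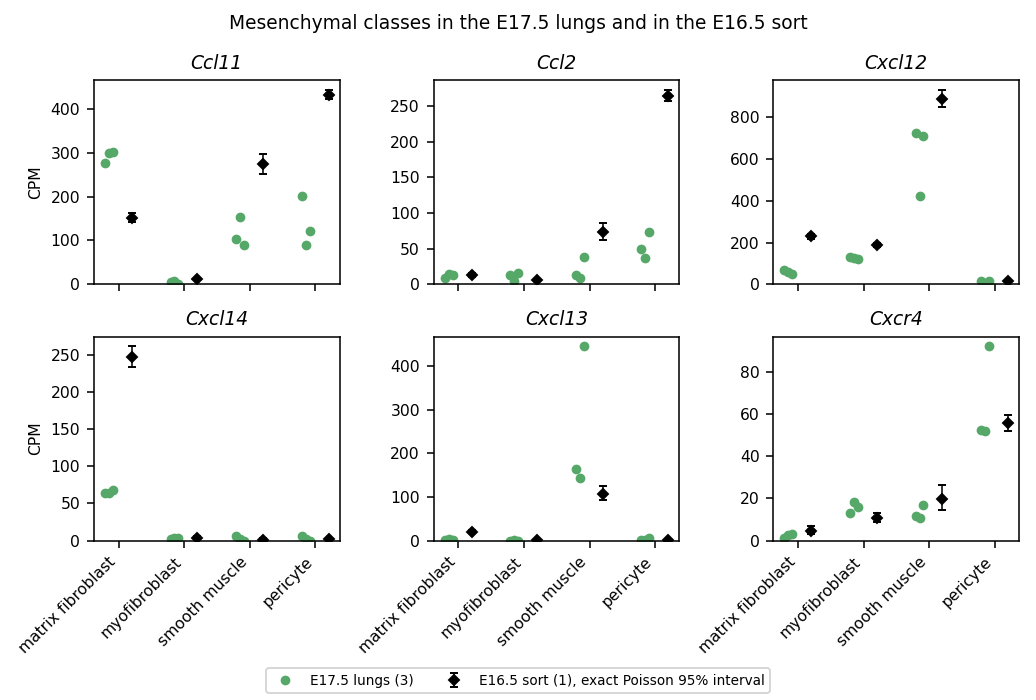
Levels in CPM (linear axis from 0) of 5 ligands and Cxcr4 in 4 mesenchymal classes: points are the 3 E17.5 lungs, and diamonds the E16.5 sort with its exact Poisson 95% interval. Ccl11 and Ccl2 in pericyte-like cells are higher in the sort than in any lung, with no test.

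Genes that work beside the receptors were tested in the same fits. Of 11 fixed atypical or accessory receptor and attractant genes in the files, 5 were tested between compartments, and 2 were higher and 3 lower in immune cells, close to the 28.5% and 57.8% of all genes. Gpr182, an endothelial scavenger of chemokines, was higher in endothelium (3.55 ± 0.07, adjusted p = 1.4e-22), and Rarres2, the chemerin attractant, in mesenchyme (3.77 ± 0.07, adjusted p = 1.4e-22). Ccrl2, which presents chemerin, was higher in immune cells (2.06 ± 0.08, adjusted p = 8.3e-17), and Dpp4, a protease that trims chemokines, in epithelium (1.73 ± 0.06, adjusted p = 2.6e-17). Of 27 fixed receptor signalling genes, 22 were tested, and 17 were higher and 3 lower in immune cells, against 28.5% and 57.8% of all genes, with a median of 1.15 against -0.28. Rac2 and Dock2, which drive leukocyte migration, were among the former (4.72 ± 0.07, adjusted p = 2.2e-24, and 2.27 ± 0.07, adjusted p = 1.6e-18). A gene of these lists present in 1 compartment only can pass the filter through it, so these counts too describe where the tested genes sat.

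The 20 genes under 5 CPM in every large class were Ccl1, Ccl5, Ccl8, Ccl19, Ccl21b, Ccl22, Ccl28, the second Ccl27a ID, Cxcl5, Cxcl9, Cxcl17, Ccr4, Ccr6, Ccr7, Ccr8, Ccr9, Ccr10, Cxcr2, Cxcr5 and Cxcr6. Ccr4 had 6 UMIs, Ccr6 4, Ccr8 2 and Ccr9 15 over the 3 lungs, too few to pass the filter, so no difference between classes was tested. All 15 Ccr9 UMIs lay in immune cells. Of the genes between 5 and 50 CPM, Cxcl3 was at 5.9, 17.4 and 8.51 CPM and Cxcr3, the receptor of Cxcl10, at 4.08, 3.07 and 7.87 CPM in C1q macrophage-like cells. Ccl25 did not exceed 8.05 CPM on average in any class.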

How the data were processed

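The authors deposited 1 table per sample of normalised expression, a signal for each gene in each cell. The submitters' processing notes list Cell Ranger 1.3.1 and also Seurat 3.0.0, and the genome build was not given in the sources used here. In each deposited table every cell sums to the sample's median total, and 100% of values were whole multiples of the cell's unit (tolerance 0.01), so UMI counts were recovered. CPM is a value over its column sum, scaled to 1000000.

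Called doublets were removed (36, 34 and 26 cells in the lungs, 1.34, 1.59 and 0.979%; 30 in the sort), using simulated doublets in scanpy 1.11.5. Clustering used 10121 genes of a hashed division plus the markers, from which 2000 variable genes and 30 components gave a graph of 15 neighbours, divided by Leiden at resolution 1. All chemokine genes, related lists and immediate early genes were among the 10011 genes held out. The markers, the members and the lists were chosen with earlier results of these data known.

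Mean CPM per class and lung was tested with limma 3.58.1 (R 4.3.3) on log2(CPM + 10) with a trend and the lung as a block, among held-out genes averaging 10 CPM or more, in 1 fit over the compartments and 1 per compartment over subclasses with at least 20 cells in every lung. Benjamini-Hochberg adjustment ran over all genes of a fit, and calls needed an adjusted p under 0.05. The lung pairs the classes because they come from the same animal; the deviations of classes of the same lung had mean correlations of 0.182 to 0.268 between compartments. In the endothelial fit the prior made the spread common to all genes, so its p-values rest on pooled spread. Genes at a mean of 50 CPM or more in a class with at least 20 cells per lung are given lung by lung, those from 5 CPM by class and range, and the others by count. Alternatives covered pseudocount, filter, scaling, summed counts, edgeR 4.0.16, the block, doublets, mitochondrial share, clustering and leaving out each lung with the classes kept. The fits were tested on simulated counts with known changes. Intervals and shares cover counting error only. The sort has 1 sample, so no test was made. Some results for single genes are not reported here.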

Additional observations from a re-analysis of the deposited data

How the results depend on the processing

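Of 246 tests of single chemokine genes 181 passed the threshold; 46 of these lost it under at least 1 alternative and 7 turned sign under 1. Without the replicate block, 3 calls were lost and 0 gained: Cxcr4 in arterial-like cells (1.37), Ccl2 in matrix fibroblast-like cells (-0.57) and Cxcl16 in airway-like cells (-0.72); the counts of calls changed to 4 of 5 in arterial-like, 6 of 7 in matrix fibroblast-like and 3 of 4 in airway-like cells, and the pairing by lung changed no other call. With no filter on low genes the calls were 36 in endothelium and 40 in immune cells, and with a filter of 1 CPM they were 7 in airway-like cells; more genes are tested there. Leaving out 1 lung gave 1 to 2 calls in alveolar type 1-like cells (1 without lung 3) and 2 to 4 in airway-like cells (2 without lung 1 or 3). Of the alternatives added after seeing the data, a minimum of 9 cells per lung gave 9 calls in pre-alveolar macrophage-like and 2 in monocyte-like cells. Adding the Agtr2-Dpep1-Penk cluster gave 4 in matrix fibroblast-like cells. Both settings add classes to the mean of the others, and the part of this was not tested. Thinning to 1000 UMIs, which removes most molecules by construction, lowered the shares of cells with a UMI to 80.4% (Cxcl12, arterial-like), 64.5% (Cxcl15, alveolar type 2-like), 76.6% (Pf4), 67.7% (Cxcl2) and 45.7% (Cx3cr1, all C1q macrophage-like), and 18.2% (Ccr2, monocyte-like). Signs turned as follows. Some of these settings change the classes in the mean of the others, and the part of this was not tested. Cxcl14 in immune cells (-0.18) became 0.51 with a pseudocount of 1 CPM, 0.0044 with median-of-ratios scaling and 0.88 with edgeR. Cxcl1 in pre-alveolar macrophage-like cells became 0.67 at resolution 0.5 and 0.65 with the minimum of 9 cells. With that minimum, which adds the 3 small immune classes to the mean of the others, 4 genes turned in monocyte-like cells. Ccl3, Cxcl1, Cx3cr1 and Cxcl2 became -0.18, 0.82, 0.48 and 0.41. At resolution 0.5 Ccl2 in monocyte-like cells became 0.51 and Cxcl12 in matrix fibroblast-like cells 0.34, the latter 0.31 with clusters from all genes. No smooth muscle-like class formed at resolution 0.5 or from all genes, so those settings gave no value for it. The mean that the other mesenchymal classes were compared with also left it out. Depth limits the 20 genes under 5 CPM, for which absence cannot be told from low level.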

Other observations

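The fixed list of 20 immediate early and stress genes differed between classes beside the chemokines. Of 19 tested between compartments, 14 were higher and 3 lower in mesenchyme, against 42.7% and 34.9% of all genes. Of 17 tested between mesenchymal subclasses, 1 was higher and 13 lower in pericyte-like cells (all genes 17.9% and 16.7%), and 11 were higher and 3 lower in matrix fibroblast-like cells (10.4% and 17.4%). In airway-like cells 1 of 17 was higher and 10 lower (22.7% and 16.4%), and in alveolar type 1-like cells 7 were higher and 0 lower (13.9% and 13.8%). Of 24 receptor signalling genes tested in C1q macrophage-like cells 7 were higher and 7 lower, close to the 27.9% and 26.8% of all genes. Rgs1, which damps Gi signalling, was higher in immune cells (2.33 ± 0.07, adjusted p = 1.7e-19), as was the kinase Fgr (2.41 ± 0.06, adjusted p = 1.8e-20).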
